A study of Homo sapiens with 14 samples.

Results

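The genes described here are 10 factors and targets of the Hippo pathway: the co-activator genes YAP1 and WWTR1, the TEAD family genes TEAD1 and TEAD4, the pathway inhibitors LATS2, AMOTL2 and PTPN14, and the target genes ANKRD1, MYOF and FJX1. They were chosen by name, with earlier results of these data known. Every probe annotated to them was taken: 16 of the 30107 probes that carry a single gene symbol, for 10 of 20043 named genes. Probes with a detection p-value below 0.05 on 2 or more arrays entered the tests. That left 14 of the 16 probes and 9 of the 10 genes, against 21569 probes and 15544 genes in the whole data set. The only ANKRD1 probe was detected on 0 of 14 arrays, and so was 1 of the TEAD1 probes.

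The arrays held RNA of the human melanoma lines WM266-4 and A375, both with a BRAF mutation per the labels. In WM266-4 there were 3 arrays each of cells given FOXD1 siRNA 1, FOXD1 siRNA 2 or a control siRNA with high GC content. In A375 there were 3 arrays of cells given a FOXD1 plasmid, called overexpression here, and 2 of cells given its empty vector backbone. FOXD1 is a forkhead transcription factor, and the comparisons ask which transcripts move when it is reduced or added. The labels speak of both transfection and transduction for A375, and they do not say whether replicates were separate cultures. Each group is 1 line under 1 reagent, so a p-value reflects the spread among arrays of a group and may miss that between cultures. Line, reagent and array run cannot be told apart between WM266-4 and A375.

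In the Hippo pathway a chain of kinases ends in LATS kinases, which phosphorylate the co-activators YAP and TAZ and keep them out of the nucleus. When the kinases are inactive, YAP and TAZ bind TEAD proteins on DNA and switch on target genes, some of which encode inhibitors of YAP itself. In melanoma cells YAP, TAZ and TEAD activity is known for its link to dedifferentiated, invasive states and to tolerance of BRAF inhibitors. Control of YAP is largely through phosphorylation and location, which RNA levels do not show.

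The siRNAs are shown because their groups differ in FOXD1 itself, and the promoters because TEAD proteins bind the letters GGAATG and forkhead proteins the letters GTAAACA. The siRNA sequences are those in the labels, 25 bases each, and the strand they give is not stated.
FOXD1 siRNA 1: uacugcuaggauuuccaauuguuaa
FOXD1 siRNA 2: gccgaggaaacagacaucgacgugg

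Promoter windows, 250 bases before to 50 after each start site, came from RefSeq (GRCh38.p14) and were found for 8 of the 10 genes, in 10 windows because WWTR1 and AMOTL2 have a pair each. Both motifs were searched on both strands, and they do not overlap each other in these windows. GGAATG was in 5 of the 10 windows, one each for YAP1, LATS2, AMOTL2, PTPN14 and ANKRD1, and in 14% of all 35116 promoters. GTAAACA was in 1 of the 10, a WWTR1 window, and in 3.42% of all promoters. A match is a description of letters, and its absence says only that these letters are not in this window. The bases around each match are given in the direction of the gene with the motif in capitals. CATTCC is GGAATG on the other strand.
LATS2, chr13:21061562-21061587: tgacgcccgtGGAATGccaacaatgt
AMOTL2, chr3:134374501-134374526: gaaactctcaCATTCCtggcatagca
PTPN14, chr1:214551787-214551812: tcccgggccgCATTCCtccccgcccc
ANKRD1, chr10:90921292-90921317: caccaccaaaGGAATGgccctctcac
ANKRD1, chr10:90921200-90921225: cactgagtctGGAATGaaaattcacc
WWTR1, chr3:149703310-149703336: cattatagatGTAAACAacatgtgtgc

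For the 3 genes whose RNA passed a test against a control group, the whole 250 bases before the start site are shown. YAP1 lies on the plus strand (chr11:102110197-102110446), FJX1 on the plus strand (chr11:35618210-35618459) and MYOF on the minus strand (chr10:93482335-93482584). The single GGAATG of YAP1 starts at position -162 from its start site and is in capitals. Neither motif is in the FJX1 or the MYOF window.
YAP1 upstream: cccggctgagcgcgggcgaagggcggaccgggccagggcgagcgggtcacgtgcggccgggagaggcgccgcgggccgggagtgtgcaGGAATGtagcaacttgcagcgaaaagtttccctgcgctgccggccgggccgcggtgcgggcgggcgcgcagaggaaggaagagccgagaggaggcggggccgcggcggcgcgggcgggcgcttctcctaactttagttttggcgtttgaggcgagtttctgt
FJX1 upstream: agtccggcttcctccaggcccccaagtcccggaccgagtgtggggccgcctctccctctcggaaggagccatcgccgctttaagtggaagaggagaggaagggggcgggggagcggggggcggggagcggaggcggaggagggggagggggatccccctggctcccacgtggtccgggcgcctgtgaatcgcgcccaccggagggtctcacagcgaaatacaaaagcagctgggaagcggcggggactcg
MYOF upstream: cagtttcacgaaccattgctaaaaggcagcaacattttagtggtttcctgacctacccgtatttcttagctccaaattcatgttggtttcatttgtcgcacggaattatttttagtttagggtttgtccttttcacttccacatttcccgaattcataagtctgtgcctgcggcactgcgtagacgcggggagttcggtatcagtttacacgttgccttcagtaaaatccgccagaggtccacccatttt

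Values below are log2 signal, the background-corrected and quantile-normalized intensity on a log2 scale, and each fold or difference compares the same probe between groups. Tests are from a single limma fit of the 5 groups over 32167 probes, with Benjamini-Hochberg adjustment over all of them, and a gene changed where its adjusted p was under 0.05. A gene is represented by its brightest probe. Between 46% and 50.4% of probes were detected on each array. Of 7 measured melanocytic markers, 7 were detected on every A375 array and 5 on every WM266-4 array, where MLANA was detected on 3 of 9. Of 4 fibroblast markers, LUM was detected on 4 of 5 A375 and 8 of 9 WM266-4 arrays, DCN on 1 of 5 and 7 of 9, COL1A1 on 1 of 5 and 3 of 9, and PDGFRA on none. Of 4 keratinocyte markers 0 were detected on every array of a line. Of 3 measured leukocyte markers, CD14 was detected on every array, PTPRC on 1 WM266-4 array and CD3E on none. For a marker with several probes, the count is that of the probe detected most often. The part of these markers in the results was not tested.

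The targeted gene checks the labels. The log2 signal of FOXD1 was 4.34, 4.35 and 4.58 with siRNA 1, and 5.92, 6.01 and 5.81 in arrays labelled FOXD1 siRNA 2, against 5.60, 5.68 and 6.16 with control siRNA. It fell with siRNA 1 (limma adjusted p = 0.000128), where it was detected on 1 of 3 arrays, so that the fitted 2.62-fold fall rests on values at or near background. It differed by 0.10 on the log2 scale in the arrays labelled FOXD1 siRNA 2 (limma adjusted p = 0.852). A source field of those arrays names FOXD2 where the titles name FOXD1. In A375 it was 7.52, 7.75 and 7.94 with overexpression and 7.33 and 7.30 with empty vector, a difference of 0.42 that did not pass (limma adjusted p = 0.252). No source used here says whether this probe reads the plasmid's transcript. Every A375 result also rests on empty vector replicate 1, whose deposited intensity column is a copy of that of overexpression replicate 3. In its place the authors' own log2 values of the vector array were used. They were put back on the linear scale and processed again with the other arrays, whose intensities had not been normalized before.

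**Figure D1:**
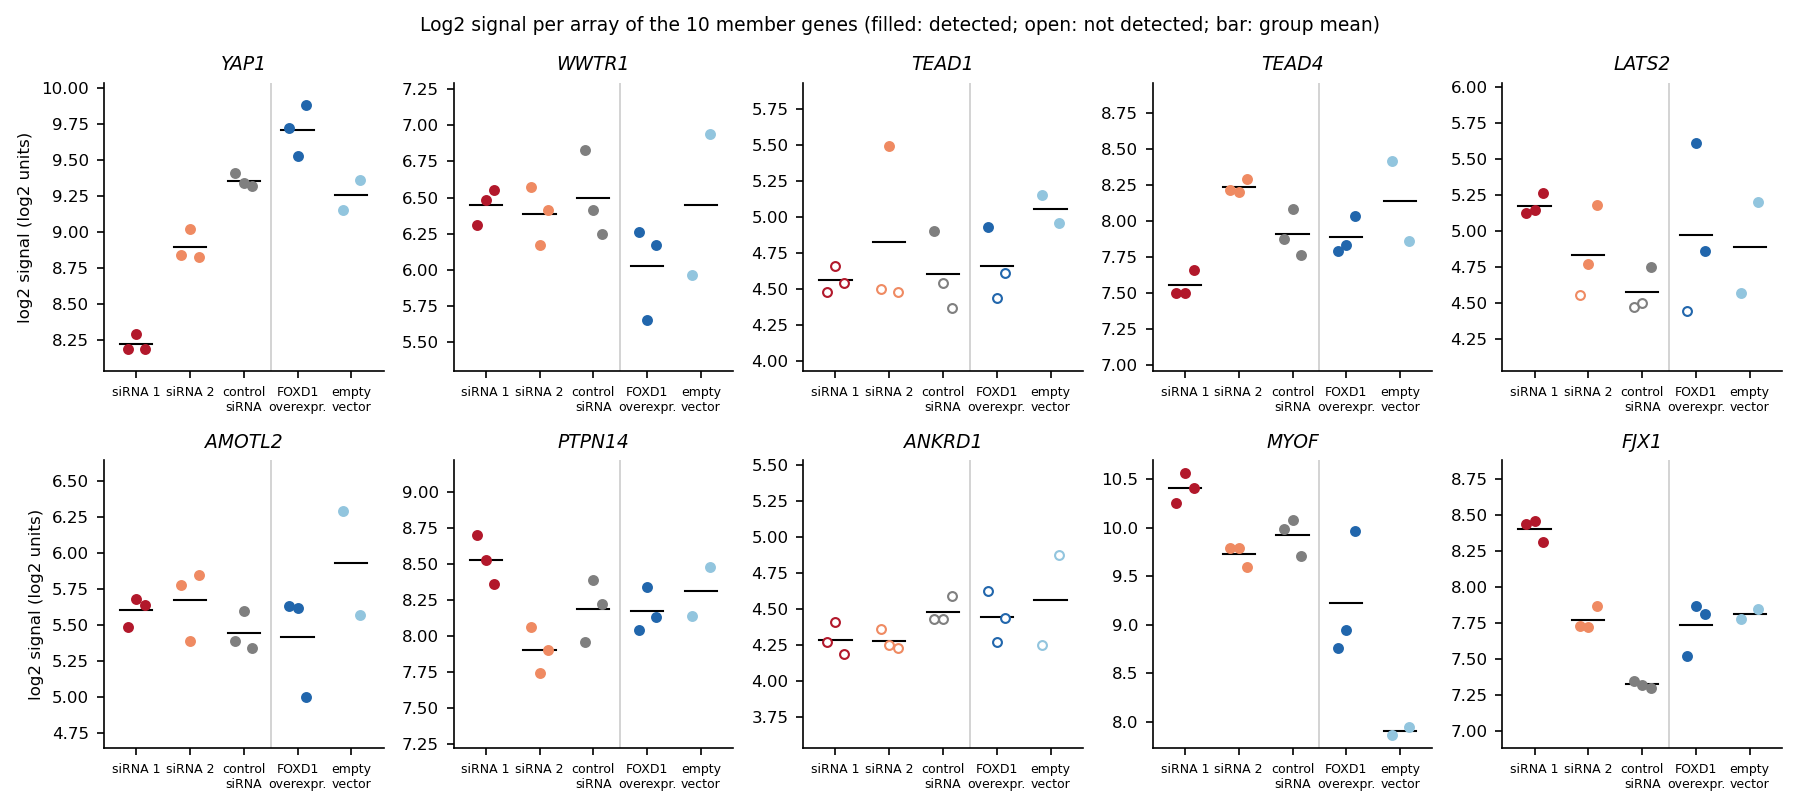
Log2 signal (log2 units, a separate axis for each gene) of the 10 genes on each of the 14 arrays, with the WM266-4 groups left of the grey line and the A375 groups right of it. Filled points were detected, open points were not, and bars are group means; YAP1 is lowest with siRNA 1 (8.19 to 8.29), FJX1 is highest there (8.31 to 8.46), and ANKRD1 is undetected on every array.

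With FOXD1 siRNA 1, 2 of the 9 measured genes changed against control siRNA: YAP1 fell and FJX1 rose. The background was 11.2% of all genes tested, with 5.82% higher and 5.34% lower. For 5 of the 9 genes the siRNA 1 and control arrays did not overlap, against 32.7% of all genes. Their median change was 0.16, against 0.01 over all genes, and 4 had an unadjusted p under 0.05, as did 24.6% of all genes.

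YAP1, which encodes the co-activator YAP, had a log2 signal of 8.19, 8.29 and 8.19 with siRNA 1, against 9.41, 9.34 and 9.32 with control siRNA. Every siRNA 1 array lay below every control array, and the arrays of a group stayed close together. YAP1 averaged 8.22 ± 0.06 with siRNA 1 and 9.36 ± 0.05 with control siRNA (SD, n = 3 each). It fell 2.19-fold (log2 change -1.13, SE 0.137, 95% confidence interval -1.42 to -0.84, limma adjusted p = 0.000128). In bulk RNA fewer cells that make a transcript and less of it per cell cannot be told apart. Under 24 other ways of processing or leaving out arrays the change ran between -1.17 and -0.97 and passed each time. Some of these, such as leaving out an array of another group or changing the filter, can move only the p-value and not the change. WWTR1, which encodes TAZ, had signals of 6.31, 6.48 and 6.55 with siRNA 1 and 6.83, 6.41 and 6.25 with control siRNA. Its groups overlapped, and its difference of -0.05 had an interval of -0.56 to 0.47.

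FJX1 is the human counterpart of Drosophila four-jointed, a Golgi kinase that in the fly modifies the cadherins Fat and Dachsous upstream of Hippo signalling. It had a log2 signal of 8.44, 8.46 and 8.31 with siRNA 1, against 7.35, 7.32 and 7.30 with control siRNA. All siRNA 1 arrays were above all control arrays. FJX1 rose 2.12-fold (log2 change 1.08, SE 0.134, interval 0.80 to 1.37, limma adjusted p = 0.000162), and under the same 24 alternatives the change ran between 0.82 and 1.13 and passed each time. It is counted among the targets of YAP and TEAD here, and its RNA was higher in the arrays where YAP1 RNA was lower.

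LATS2, a kinase that phosphorylates YAP and TAZ and is itself a target gene, was dim. Its log2 signal was 5.12, 5.14 and 5.26 with siRNA 1, detected on 3 of 3 arrays, and 4.47, 4.50 and 4.75 with control siRNA, detected on 1 of 3. No siRNA 1 array overlapped the controls, but the difference of 0.59 did not pass (interval 0.05 to 1.14, limma adjusted p = 0.209). MYOF, a ferlin that takes part in membrane repair and trafficking, had 10.25, 10.56 and 10.41 with siRNA 1 and 9.99, 10.08 and 9.71 with control siRNA. It did not overlap either, and its difference of 0.48 did not pass (limma adjusted p = 0.305). TEAD4, a DNA-binding partner of YAP, was the third such gene, with 7.5, 7.5 and 7.66 with siRNA 1 against 7.87, 8.08 and 7.76 with control siRNA, a difference of -0.35 (limma adjusted p = 0.23).

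PTPN14, a phosphatase that binds YAP, AMOTL2, an angiomotin that holds YAP in the cytoplasm, and TEAD1 did not pass with siRNA 1. Their differences were 0.34 (adjusted p = 0.283), 0.16 (adjusted p = 0.776) and -0.04 (adjusted p = 0.961) in the limma fit. TEAD1 was at the edge of detection, being detected on 5 of 14 arrays.

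In the arrays labelled FOXD1 siRNA 2, where FOXD1 was not lower, 0 of the 9 genes passed the limma test, against 5.06% of all genes (3.06% higher and 1.99% lower). At an unadjusted p under 0.05 there were 2, YAP1 and FJX1, beside 19.5% of all genes. The groups did not overlap for 3 of the 9 genes (25.7% of all genes), and the median change was 0.22, against 0 over all genes. These arrays are set against the same 3 control arrays as siRNA 1, so the comparisons share part of their data.

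YAP1 had a log2 signal of 8.84, 9.02 and 8.83 in the arrays labelled FOXD1 siRNA 2, against 9.41, 9.34 and 9.32 with control siRNA. All 3 were below all controls, and the difference was -0.46 (interval -0.75 to -0.17, limma adjusted p = 0.0822). The call depended on the processing: on the authors' deposited log2 values the difference was -0.41 and passed (limma adjusted p = 0.0113). It passed in 6 of 24 alternatives and did not pass in the other 18. FJX1 had 7.73, 7.72 and 7.87 there, against 7.35, 7.32 and 7.30 with control siRNA. It lay above every control, with a difference of 0.45 (interval 0.16 to 0.74, limma adjusted p = 0.084) and, on the authors' log2 values, of 0.32 (limma adjusted p = 0.0269). FJX1 passed in 5 of 24 alternatives and did not pass in the other 19. The TEAD4 arrays, at 8.21, 8.20 and 8.29, were all above the controls, by 0.33 on average (limma adjusted p = 0.333). The other 6 genes differed by between -0.29, in PTPN14, and 0.25, in LATS2, and their groups overlapped.

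The siRNA groups were also set against each other, which leaves the control arrays out. Of the 9 genes 3 passed, against 4.41% of all genes: YAP1 and TEAD4 were lower with siRNA 1 than in the arrays labelled FOXD1 siRNA 2, and FJX1 was higher (1.25% higher and 3.16% lower over all genes). There was no overlap for 5 of the 9, against 25.3% of all genes. YAP1 differed by -0.67 (interval -0.96 to -0.38, limma adjusted p = 0.0135), FJX1 by 0.63 (interval 0.34 to 0.92, limma adjusted p = 0.018) and TEAD4 by -0.68 (interval -1.02 to -0.34, limma adjusted p = 0.0286).

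These 3 calls rest on few arrays. TEAD4 did not pass when any 1 of the 6 siRNA arrays was left out, with differences of -0.74 to -0.65 and limma adjusted p of 0.0612 to 0.113. YAP1 did not pass without siRNA 1 replicate 1 or 3 or without siRNA 2 replicate 2 (limma adjusted p = 0.0629, 0.0596 and 0.0628). FJX1 did not pass without siRNA 1 replicate 1 or 2 or siRNA 2 replicate 1 or 2 (limma adjusted p = 0.0786, 0.0646, 0.0671 and 0.0671). MYOF and PTPN14 did not overlap between these groups. MYOF differed by 0.68 (limma adjusted p = 0.182) and passed with only the WM266-4 arrays in the fit (limma adjusted p = 0.0385). PTPN14 differed by 0.63 (limma adjusted p = 0.055) and passed on the authors' log2 values (limma adjusted p = 0.0123). Of 24 alternatives, MYOF passed in 3 and PTPN14 in 6.

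**Figure D2:**
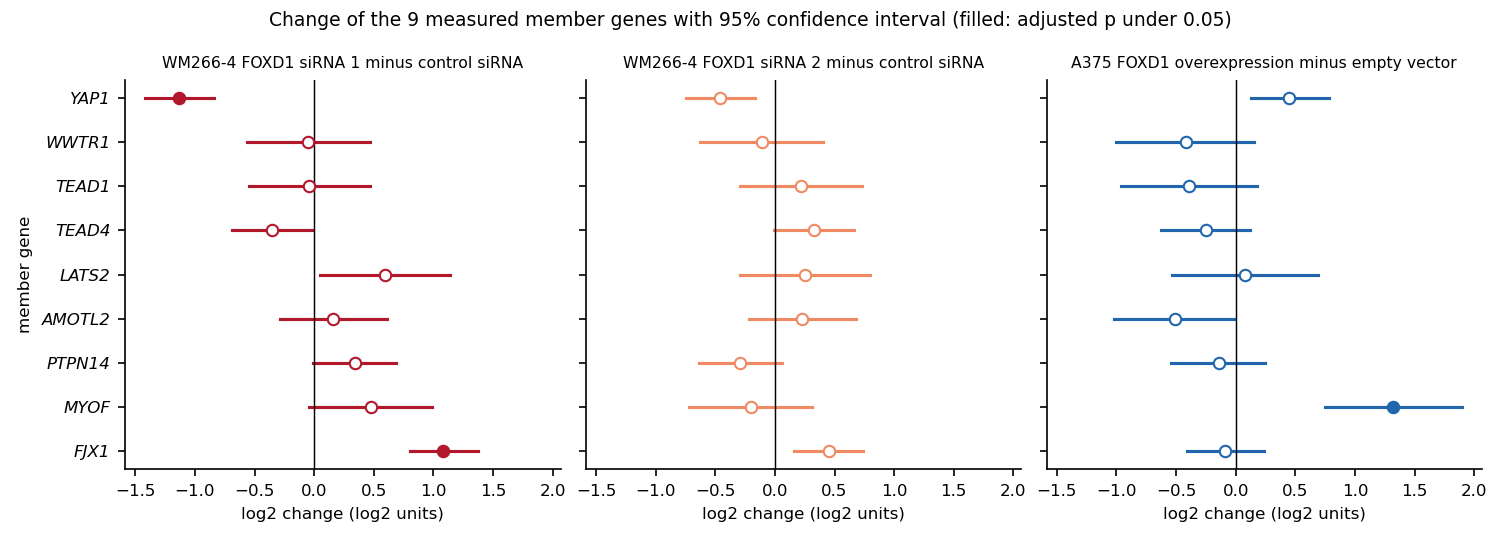
Log2 change (log2 units) of the 9 measured genes with 95% confidence intervals from the limma fit, for siRNA 1 and the arrays labelled FOXD1 siRNA 2 against control siRNA in WM266-4 and for overexpression against empty vector in A375. Filled points passed at an adjusted p under 0.05: YAP1 at -1.13 and FJX1 at 1.08 with siRNA 1, and MYOF at 1.32 with overexpression.

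In A375, 1 of the 9 genes changed with FOXD1 overexpression, MYOF, against 5.12% of all genes (2.69% higher and 2.43% lower). The groups did not overlap for 3 genes, MYOF, YAP1 and TEAD1, against 35.9% of all genes, with 2 empty vector arrays to compare with. The median change of the 9 genes was -0.14, against 0 over all genes, and 3 had an unadjusted p under 0.05, as did 21.8% of all genes.

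MYOF had a log2 signal of 8.76, 8.95 and 9.97 with overexpression, against 7.86 and 7.94 with empty vector (probe ILMN_1810289). Overexpression replicate 3 stood about 1 unit above the other overexpression arrays, and all 3 were above both vector arrays. MYOF rose 2.5-fold (log2 change 1.32, SE 0.27, interval 0.75 to 1.90, limma adjusted p = 0.0165). The change was 0.95 and passed without overexpression replicate 3 (limma adjusted p = 0.0117). It did not pass without empty vector replicate 1 (1.29, adjusted p = 0.0752) or replicate 2 (1.36, adjusted p = 0.115), where the lone vector array is assumed in the limma fit to vary like the other groups. With only the A375 arrays in the fit it did not pass (limma adjusted p = 0.142), and with the copied column as deposited it was 0.27.

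MYOF has 2 more probes, and both were brighter with overexpression. Probe ILMN_2370976 had 6.64, 6.97 and 7.81 with overexpression and 5.91 and 6.21 with empty vector, and rose by 1.08 log2 units (limma adjusted p = 0.0393). Probe ILMN_3302919 had 8.40, 8.33 and 9.56 with overexpression and 7.74 and 7.47 with empty vector, a difference of 1.16 just outside the threshold (limma adjusted p = 0.051). On each probe the overexpression arrays lay above both vector arrays and replicate 3 was the highest. In WM266-4 the 3 probes differed by 0.43 to 0.48 with siRNA 1 and by -0.42 to -0.20 in the arrays labelled FOXD1 siRNA 2, and none passed.

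YAP1 had a log2 signal of 9.72, 9.53 and 9.88 with overexpression and 9.15 and 9.36 with empty vector. The groups did not overlap, and the difference of 0.45 did not pass (interval 0.13 to 0.78, limma adjusted p = 0.119). On the authors' log2 values it was 0.40 and passed (limma adjusted p = 0.0234). The YAP1 difference passed in 3 of 25 alternatives and did not pass in the other 22. FJX1 had 7.52, 7.87 and 7.81 with overexpression and 7.78 and 7.85 with empty vector, so its groups overlapped, and its difference was -0.09 (interval -0.41 to 0.24).

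The inhibitors did not pass in A375. AMOTL2 had a log2 signal of 5.63, 5.62 and 5.00 with overexpression and 6.29 and 5.57 with empty vector, a difference of -0.51 that rested on overlapping arrays (limma adjusted p = 0.275). PTPN14 differed by -0.14 on its brightest probe (limma adjusted p = 0.769). On its dimmer probe, ILMN_1750240, it had 4.92, 4.80 and 4.91 with overexpression and 5.37 and 5.58 with empty vector, which did not overlap, a difference of -0.60 (limma adjusted p = 0.144). The probes are annotated to different transcript records, and they also parted between the siRNAs, at 0.63 and 0.03. LATS2, WWTR1, TEAD1 and TEAD4 differed by 0.08, -0.42, -0.39 and -0.25 with overexpression, and none passed.

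**Figure D3:**
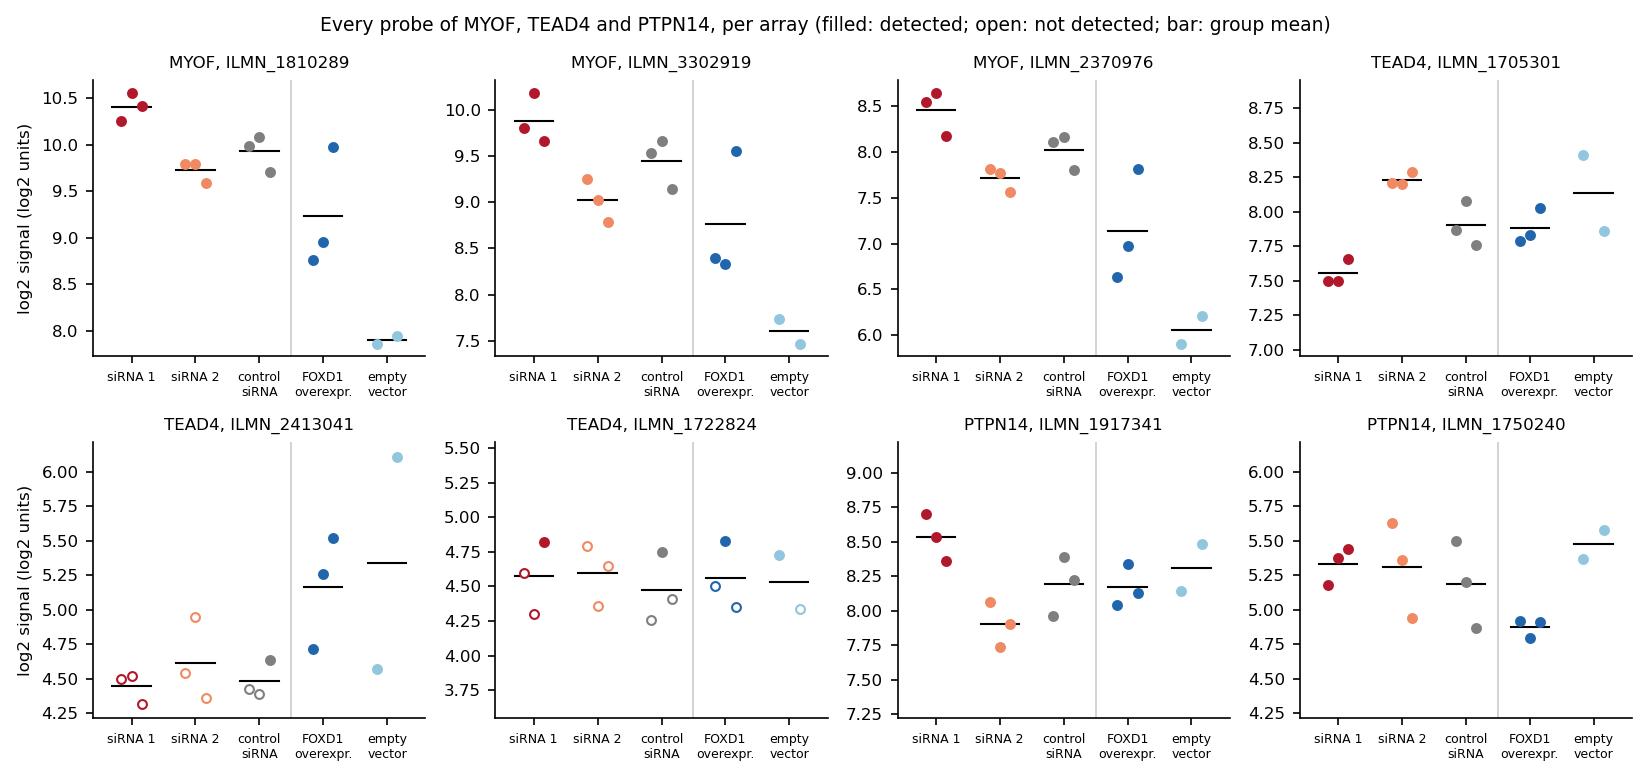
Log2 signal (log2 units, a separate axis for each probe) of the 8 tested probes of MYOF, TEAD4 and PTPN14 on each array, WM266-4 groups left of the grey line and A375 groups right of it, with filled points detected, open points not detected and bars at group means. The MYOF probes share 1 pattern, with empty vector arrays lowest, while the brightest TEAD4 probe and the brightest PTPN14 probe separate siRNA 1 from the arrays labelled FOXD1 siRNA 2.

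The TEAD4 pattern came from ILMN_1705301, detected on 14 arrays. Of the siRNA arrays, ILMN_2413041 was detected on 0 of 3 in each group, and ILMN_1722824 on 1 of 3 with siRNA 1 and 0 of 3 in the arrays labelled FOXD1 siRNA 2. They give no level there, so the TEAD4 result is that of ILMN_1705301 alone.

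Gain and loss, as labelled, were compared in a single contrast: the change with overexpression in A375 minus the change of control siRNA against the mean of the siRNA groups in WM266-4. For 1 of the 9 genes, MYOF, this difference passed, against 6.11% of all genes (3.39% higher and 2.71% lower). For MYOF it was 1.46 (SE 0.341, interval 0.73 to 2.19, limma adjusted p = 0.0274), made of 1.32 in A375 and -0.14 in WM266-4. It did not pass without control replicate 1 or 3 or without either empty vector array (1.35 to 1.5, limma adjusted p of 0.0512 to 0.0987). On the other MYOF probes the difference did not pass. It was 1.16 on ILMN_3302919 and 1.15 on ILMN_2370976 (limma adjusted p = 0.113 and 0.0739). The WM266-4 part of -0.14 averages siRNA groups that differed from control siRNA in opposite directions, by 0.48 and -0.20. The arrays labelled FOXD1 siRNA 2 enter this contrast with FOXD1 not lower. For YAP1 it was -0.34 (limma adjusted p = 0.392). For FJX1 it was 0.68 (limma adjusted p = 0.0559), and on the authors' log2 values it was 0.51 and passed (limma adjusted p = 0.0121). The FJX1 difference passed in 7 of 24 alternatives and did not pass in the other 17.

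The levels of the lines were compared through their control groups. MYOF had a log2 signal of 7.86 and 7.94 in A375 with empty vector, against 9.99, 10.08 and 9.71 in WM266-4 with control siRNA. It was 4.07-fold lower in A375 (log2 difference -2.03, limma adjusted p = 0.00023), and the other MYOF probes were lower by -1.84 and -1.96. FJX1 was higher in A375, with 7.78 and 7.85 against 7.35, 7.32 and 7.30 in WM266-4, a difference of 0.50 (limma adjusted p = 0.0384). It did not pass when any of 8 of the 14 arrays was left out, among them all 5 compared here (0.46 to 0.53, limma adjusted p of 0.0759 to 0.171). These were 2 of 9 genes, against 18.2% of all genes (10.3% higher and 7.92% lower). The other 7 differed by between -0.10, in YAP1, and 0.49, in AMOTL2. The groups did not overlap for 3 genes, the third being TEAD1, against 48.5% of all genes.

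Across the 5 groups the mean log2 signal of YAP1 ran in the order overexpression (9.71), control siRNA (9.36), empty vector (9.26), arrays labelled siRNA 2 (8.90) and siRNA 1 (8.22), and of these neighbours only control siRNA and empty vector overlapped. FJX1 ran in the order siRNA 1 (8.40), empty vector (7.82), arrays labelled siRNA 2 (7.77), overexpression (7.73) and control siRNA (7.32). Only its middle 3 groups overlapped their neighbours. MYOF ran in the order siRNA 1 (10.40), control siRNA (9.93), arrays labelled siRNA 2 (9.72), overexpression (9.22) and empty vector (7.90), with overlap from control siRNA to overexpression. TEAD4 ran from 8.23 in the arrays labelled siRNA 2 to 7.55 with siRNA 1, and only siRNA 1 did not overlap its neighbour. Every pair of neighbours overlapped for WWTR1, TEAD1, LATS2, AMOTL2 and PTPN14, whose group means spanned 6.03 to 6.50, 4.56 to 5.05, 4.58 to 5.17, 5.42 to 5.93 and 7.90 to 8.53.

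Over the 9 WM266-4 arrays the genes most like YAP1 among 5893 searched were UPP1, a uridine phosphorylase (Pearson r = 0.995), and MBNL1, a splicing factor (r = 0.991). Those most like FJX1 were THBS2, a matricellular protein (r = 0.98), and CCDC92 (r = 0.976). These are the highest of many and all 9 arrays share the 3 groups, so they describe the pattern only.

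The rest of the pathway was read from 52 other Hippo genes, 47 of them measured. This list and the target list below were chosen with earlier results of these data known, so their counts and medians are descriptions. With siRNA 1, 5 rose and 4 fell, and in the arrays labelled FOXD1 siRNA 2, 4 rose and 1 fell. Of all genes 5.82% rose and 5.34% fell with siRNA 1, and 3.06% rose and 1.99% fell in the arrays labelled siRNA 2. The list's medians were 0.05 and -0.04, beside 0.01 and 0 over all genes. No call of a gene in this list or the target list was examined under the alternatives. Each gene of this list was read from its brightest probe only. Under siRNA 1 and in the arrays labelled siRNA 2, the cell polarity gene LLGL1 rose 3.11-fold and 2.67-fold (limma adjusted p = 7.03e-05 and 0.000548), TAOK2, a kinase upstream of the MST kinases, 2.25-fold and 1.59-fold (limma adjusted p = 0.000565 and 0.0411), STRN4, a striatin of the phosphatase complexes that act on MST kinases, 1.77-fold and 1.52-fold (limma adjusted p = 0.00477 and 0.0492), and the polarity scaffold gene SCRIB 1.55-fold and 1.52-fold (limma adjusted p = 0.0181 and 0.041).

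RASSF4, a Ras-association family gene, averaged 4.40 with siRNA 1 and 4.40 in the arrays labelled siRNA 2, not well above background on any of these arrays, against 5.49 with control siRNA. Against the lowest detected signal of each array it was 2.00-fold and 2.02-fold lower (limma adjusted p = 0.00259 and 0.00486). These folds are nominal bounds, as undetected probes can lie above that signal. With siRNA 1 some core kinase module genes also passed: SAV1, the scaffold of the MST kinases, differed by -0.83 log2 units (limma adjusted p = 0.00231). STK3, which encodes an MST kinase, differed by -0.62 (limma adjusted p = 0.0479). The module genes STK4, LATS1, MOB1A, MOB1B and LATS2 did not pass, with differences of -0.12, -0.09, -0.57, -0.18 and 0.59. WTIP, a LIM protein that binds LATS, fell by 0.65 log2 units (limma adjusted p = 0.033), and AMOT, an angiomotin like AMOTL2, rose by 0.83 log2 units (limma adjusted p = 0.00547). With overexpression 0 of the 47 passed in the limma fit, against 5.12% of all genes. Of the 47, 9 had an unadjusted p under 0.05, beside 21.8% of all genes.

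**Figure D4:**
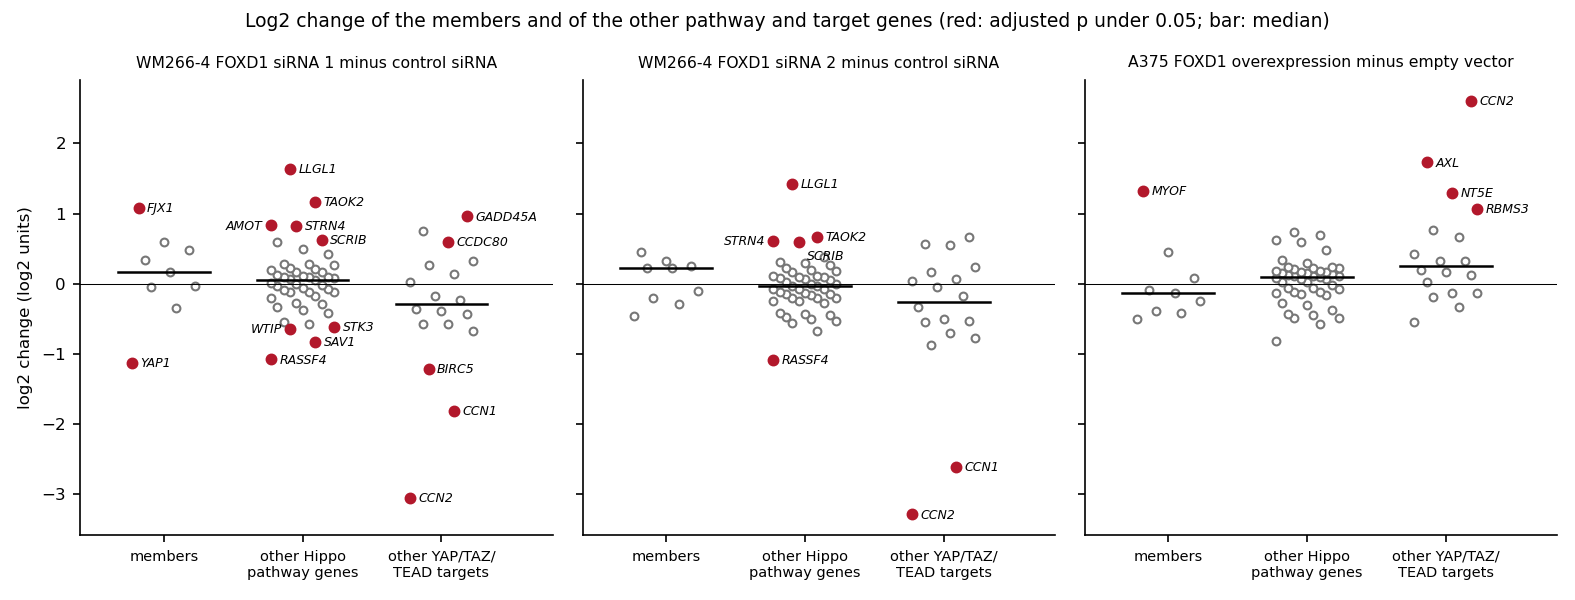
Log2 change (log2 units) of the 9 measured genes, 47 other Hippo pathway genes and 18 other YAP, TAZ and TEAD target genes in 3 comparisons, with genes that passed at an adjusted p under 0.05 in red and named, others open, and bars at medians. CCN2 lies lowest in both siRNA panels (-3.05 and -3.29) and highest with overexpression (2.61); the points of RASSF4 and CCDC80 are fitted values of probes undetected in 1 of the groups compared.

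Of 20 other YAP, TAZ and TEAD target genes 18 were measured. With siRNA 1, 2 rose and 3 fell, in the arrays labelled FOXD1 siRNA 2, 0 rose and 2 fell, and with overexpression 4 rose and 0 fell. Passing genes made up 11.2%, 5.06% and 5.12% of all genes in these comparisons. The medians of the list were -0.29, -0.26 and 0.25, beside 0.01, 0 and 0 over all genes. CCN2, a secreted matricellular protein, was 8.27-fold lower with siRNA 1 and 9.77-fold lower in the arrays labelled siRNA 2 (limma adjusted p = 8.15e-06 and 1.41e-05) and 6.09-fold higher with overexpression (limma adjusted p = 0.000497). On its dimmer probe CCN2 was 8.53-fold and 9.6-fold lower in the siRNA groups (limma adjusted p = 6.77e-06 and 1.29e-05). That probe was 4.13-fold higher with overexpression (limma adjusted p = 0.00215). The related gene CCN1 was 3.53-fold and 6.10-fold lower in the siRNA groups (limma adjusted p = 0.0103 and 0.00171). With overexpression CCN1 differed by 0.76 log2 units, its groups overlapped, and it did not pass (limma adjusted p = 0.417). ANKRD1, which belongs with CCN1 and CCN2 to the most used YAP target readouts, had 4.27, 4.41 and 4.19 with siRNA 1 and 4.43, 4.43 and 4.59 with control siRNA, all undetected, so it gives no level here.

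The other targets that passed were spread over the comparisons. With siRNA 1, GADD45A, a stress response gene, rose 1.95-fold (limma adjusted p = 0.00332), and BIRC5, which encodes the mitotic protein survivin, fell 2.34-fold (limma adjusted p = 0.0143). CCDC80, a matrix protein gene undetected with control siRNA, rose 1.47-fold with siRNA 1 by the nominal bound used for RASSF4 (limma adjusted p = 0.0289). It was detected on 3 arrays with siRNA 1, on 1 array labelled siRNA 2 and on no A375 array. CCDC80 thus passed the filter only through the siRNA 1 arrays, so its p-value is not independent support for the rise. With overexpression there were rises of the receptor tyrosine kinase gene AXL by 3.32-fold (limma adjusted p = 0.00638), NT5E, a cell surface nucleotidase, by 2.46-fold (limma adjusted p = 0.0331) and RBMS3, an RNA-binding protein gene, by 2.10-fold (limma adjusted p = 0.00418). These rises and that of CCN2 rest on 2 empty vector arrays, and their calls were not examined under the alternatives. With only the A375 arrays in the fit, 179 probes were called for overexpression in place of 1198. Between A375 with empty vector and WM266-4 with control siRNA, 1 of the 18 was higher and 7 were lower, beside 10.3% and 7.92% of all genes, among them CCN2 at -6.23, CCN1 at -3.89 and AXL at -3.42 on the log2 scale.

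**Figure D5:**
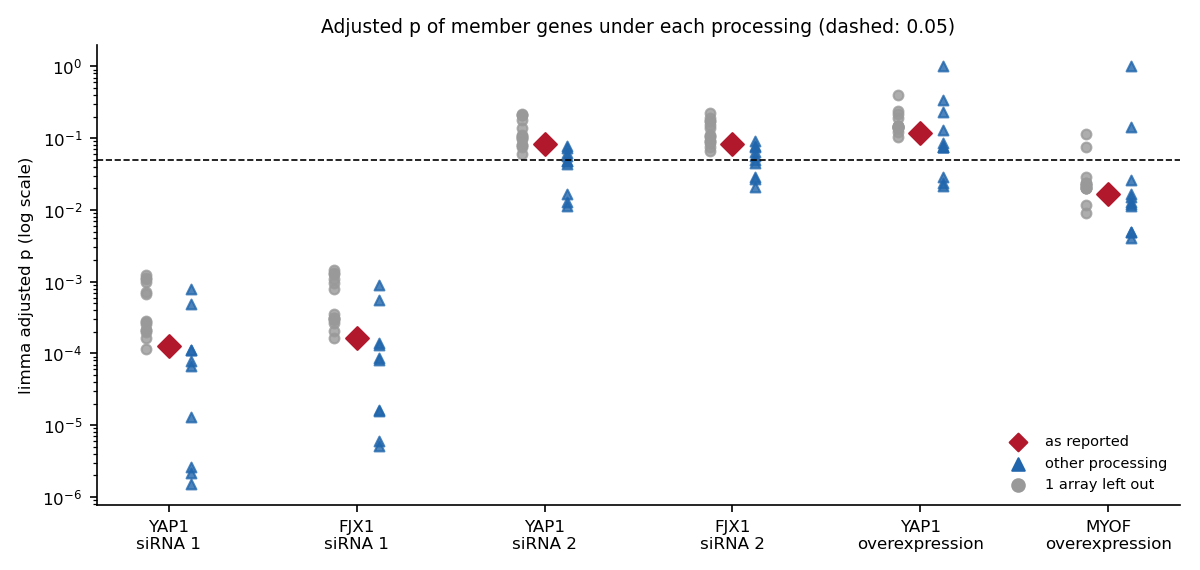
Limma adjusted p (log axis; dashed line at 0.05) of YAP1, FJX1 and MYOF in the named comparisons, as reported (diamonds), with other processing (triangles) and with 1 array left out (circles). YAP1 and FJX1 with siRNA 1 stay under 0.05 at every point (highest 0.00122 and 0.00144), while YAP1 and FJX1 in the arrays labelled siRNA 2, YAP1 with overexpression and MYOF with overexpression have points on both sides.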

How the data were processed

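RNA of 14 samples was measured on Illumina bead arrays. The deposited intensity of each probe is linear and not normalized, per the file headers. The deposited table also gives each intensity a detection p-value. The authors also deposited processed log2 values, which are used as an alternative and in place of 1 intensity column. That column, of A375 empty vector replicate 1, had 100% of its probes within 1% of overexpression replicate 3, against at most 7.366% for any other pair of arrays. The scanner software and how the authors computed detection are not given in the sources used here.

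Background was corrected by normexp with detection p-values and an offset of 16, followed by quantile normalization over the 14 arrays and log2 (limma 3.58.1, statmod 1.5.0, R 4.3.3). For A375 empty vector replicate 1 the antilog of the authors' processed log2 values entered these steps, so this array alone had been processed before. The part of this in the A375 results was not tested. Of 48107 probes, 10 lacked a value and were dropped, and 32167 were detected (p under 0.05) on at least 2 arrays. Gene names come from the platform annotation of 2016, with a single symbol for 30107 probes, several for 8 and none for 17982. A single fit (lmFit, eBayes) of the 5 groups had 9 residual and 5.83 prior degrees of freedom, and its probe-wise adjusted p was used for each gene's brightest passing probe. The fit was tested on simulated data. The number of arrays limits the precision.

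Every probe of the 10 genes was examined, and the dimmer probes of MYOF, TEAD4 and PTPN14 are described for some of the comparisons only. From the lists of other Hippo genes and other target genes, up to 10 genes a list were named, those that passed with siRNA 1, siRNA 2 or overexpression, largest change first. WWC1, LIMD1, VGLL3 and FOXF2 did not pass the detection filter, and the remaining list genes without a value were not analysed here. For each gene that passed with an siRNA, the 2 most similar genes were named by Pearson correlation, among genes with an SD of at least 0.3. The genes and lists were chosen with earlier results of these data known. Where every array of a group was undetected, a nominal lower bound replaced the fold. The bound sets the brighter group's mean against the mean of, per array, the higher of the lowest detected signal and the probe's own. It is nominal because detection is judged per probe: TEAD4 probe ILMN_2413041 had 4.95 and was undetected on siRNA 2 replicate 2. The alternatives were no background correction, an offset of 50, the authors' log2 values, normalization within each line, other filters, 1 probe a gene, trended and robust moderation, only the arrays of 1 line, the replicate number as a block, the copied column as deposited, and leaving out each array.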

Additional observations from a re-analysis of the deposited data

Results flagged for a closer look

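The change of MYOF differed between the lines: overexpression minus empty vector in A375 exceeded control siRNA minus the mean of the siRNA groups in WM266-4 by 1.46 log2 units (limma adjusted p = 0.0274). The parts were 1.32 and -0.14. On the other MYOF probes the difference was 1.16 and 1.15 and did not pass (limma adjusted p = 0.113 and 0.0739). Line, reagent and array run cannot be told apart in this difference.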

How the results depend on the processing

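The calls of YAP1 and FJX1 with siRNA 1 held under all 24 alternatives; the causes of the shifts below were not tested. Probes called for the arrays labelled siRNA 2 numbered 1171, and 1850 without background correction, 1823 with an offset of 50 and 1863 on the authors' log2 values. For overexpression they numbered 1198, and 2208, 2064 and 2257 under those settings, 1920 with trended and robust moderation, 179 with only the A375 arrays and 0 with the copied column. For siRNA 1 minus siRNA 2 they numbered 952, and 1429 without background correction. For the difference between the lines they numbered 1397, and 2316, 2195 and 2359 under the first 3 settings and 167 with the copied column. Of the 9 genes, 2 were called for siRNA 2 under those 3 settings, without a filter and with 1 probe a gene, and 1 with trended moderation. For overexpression 2 were called under the 3 settings, 0 with only the A375 arrays and 0 with the copied column. For the difference between the lines 2 were called under the 3 settings, with the stricter filter, without a filter and with 1 probe a gene, and 0 with the copied column. For empty vector against control siRNA 1 was called with the copied column. That column also turned signs: LATS2 (-0.06) and AMOTL2 (0.12) with overexpression, AMOTL2 (0.32) between the lines, and YAP1 (0.26), WWTR1 (0.06) and AMOTL2 (-0.15) between the control groups.

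Leaving out 1 array gave 1513 to 2897 probes called with siRNA 1, 559 to 1461 for siRNA 2, 122 to 1198 for overexpression, 466 to 1103 between the siRNAs, 442 to 1458 between the lines and 2273 to 5050 between the control groups. The lowest counts came without control replicate 2 for both siRNAs, without siRNA 1 replicate 1 between the siRNAs, and without empty vector replicate 2 for the others. The number of the 9 genes called stayed at 2 with siRNA 1 and 0 for siRNA 2, and ran from 0 to 1, 0 to 4, 0 to 2 and 1 to 2 in the others. Differences that did not pass in any of these fits also turned sign when an array was left out, and their ranges were as follows. With siRNA 1, WWTR1 ran from -0.17 to 0.12 and TEAD1 from -0.16 to 0.10. For siRNA 2, WWTR1 ran from -0.24 to 0.05 and TEAD1 from -0.11 to 0.39. With overexpression, WWTR1 ran from -0.92 to 0.07, TEAD4 from -0.52 to 0.02, LATS2 from -0.24 to 0.39, PTPN14 from -0.31 to 0.03 and FJX1 from -0.15 to 0.02. Between the siRNAs, WWTR1 ran from -0.04 to 0.16, TEAD1 from -0.43 to 0.07 and AMOTL2 from -0.21 to 0.02. Between the lines, TEAD4 ran from -0.54 to 0.01, AMOTL2 from -0.68 to 0.04 and PTPN14 from -0.29 to 0.05. Between the control groups, YAP1 ran from -0.21 to 0.01, WWTR1 from -0.54 to 0.45, TEAD4 from -0.04 to 0.50, LATS2 from 0 to 0.63 and PTPN14 from -0.05 to 0.29.

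Same-numbered WM266-4 arrays deviated together with r of 0.087 to 0.20 over 9 pairs, and all 9 arrays correlated best with an array of their own number, which is a hint from the data and not the design. In A375 r was -0.027 to 0.03. With the replicate number as a block, 4 of the 9 genes were called with siRNA 1, LATS2 (0.59, limma adjusted p = 0.0322) and MYOF (0.48, limma adjusted p = 0.047) besides YAP1 and FJX1. Between the siRNAs the block brought the count to 4, with MYOF added (0.68, limma adjusted p = 0.019). Probes called were 3286, 1709, 1495, 1334 and 1865 with the block, for siRNA 1, siRNA 2, overexpression, siRNA 1 minus siRNA 2 and the lines. Dim probes limit LATS2, TEAD1 and ANKRD1, which lie at or below background on many arrays.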
